A study of Mus musculus with 6 samples.

Results

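The acute phase proteins and metallothioneins considered here were 10 genes, Saa1, Saa2, Saa3, Orm1, Orm2, Hp, Lcn2, Serpina3n, Mt1 and Mt2, chosen by name from the 24346 gene symbols measured in liver. The livers came from male C57BL/6J mice (labelled C57BL/6) that were 8 weeks old when they were placed on CDAHFD, a diet rich in fat, without choline and with defined amino acids that models NASH. After 6 weeks on the diet each mouse received 2e+11 genome copies of an AAV8 vector and was returned to normal chow for 2 weeks before the liver was taken. The vector carried the liver-specific thyroxine-binding globulin promoter, so that its product was made in hepatocytes, and poly(A) RNA was sequenced as 100-base read pairs. The 3 control mice carried LDTS-LIR mut, a lipid droplet-targeting sequence from perilipin 1 joined to a mutant LC3-interacting region that does not hold LC3, and the 3 lipophagy mice carried LDTS-eLIR, the same targeting sequence joined to an engineered LC3-interacting region from optineurin that recruits autophagosomes. Both groups therefore shared the diet, the virus and the droplet-targeting sequence, which the study found to be lipogenic by itself, and no group without a virus or without the diet was analysed here. The labels do not say more of how the mice were kept, and the p-values measure the spread between these 6 livers.

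Acute phase proteins are secreted mainly by hepatocytes when tissue is injured or inflamed. In the textbook scheme interleukin-6 acts through gp130 and STAT3, and interleukin-1 through NF-kB and the C/EBP factors, and glucocorticoids strengthen both responses. Positive acute phase proteins such as serum amyloid A rise in plasma and negative ones such as albumin fall. Metallothioneins are small cysteine-rich proteins that bind zinc and copper, and their genes are switched on by metals through the transcription factor MTF-1 and also by glucocorticoids and inflammatory cytokines.

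All 10 genes were well expressed, and none differed between the groups beyond the threshold across the genome. The unit was FPKM (fragments scaled to the length of the transcript and the size of the library), as the authors deposited it. All 10 passed the filter on low values (0.5 FPKM or more on average over the 6 livers) that left 11493 genes, and each was tested on log2(FPKM + 1) with limma and adjustment over all tested genes. None of the 10 had an adjusted p below 0.05 in limma, where 0.0261% of all tested genes did (3 genes, Cish, Foxa1 and Phlda1, named after their values were seen). At an unadjusted p below 0.05, 3 of the 10 were lower in lipophagy livers (Lcn2, Orm2 and Hp) against a background of 7.97% of tested genes, and 0 were higher against a background of 11.5%. The count of 3 was 5 without control liver 1 and 4 without lipophagy liver 3. It was 2 when control liver 2 or 3 or lipophagy liver 1 was left out. Over all tested genes the lower ones at this p numbered 905, 943, 666, 602 and 664 in these fits, in the same order, against 916 with all livers. The same 3 genes were the ones whose groups did not overlap, each lower in every lipophagy liver than in every control liver, against 10.8% of tested genes apart in this direction and 15.4% apart upward. In all, 9 of 10 fitted changes were below 0 and the median was -0.34 on the log2 scale, where the median over all tested genes was 0.020. This median depended on single livers and was -0.13 without control liver 3 and -0.59 without lipophagy liver 3.

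**Figure D1:**
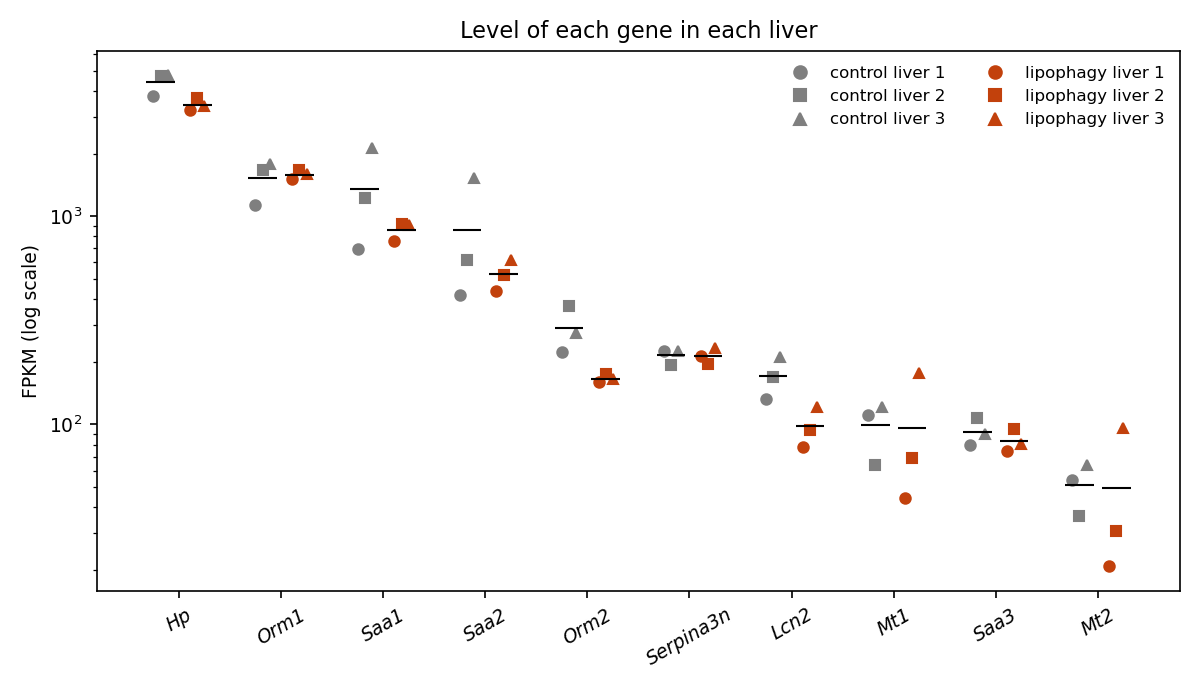
Level of the 10 genes in each liver, in FPKM on a log axis, with genes ordered by their control mean, control livers in grey, lipophagy livers in orange and a bar at each group mean. Orm2, Lcn2 and Hp were lower in all 3 lipophagy livers than in any control liver, Saa1 and Saa2 were spread over more than 3-fold in control livers, and Mt1 and Mt2 were highest in lipophagy liver 3.

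The 10 genes spanned a wide range of levels. Hp ranked 20th of all genes by mean FPKM, Orm1 52nd, Saa1 81st and Saa2 138th, and the remaining 6 ranked between 429 and 1401. In FPKM, which is scaled to length, control means ran from Hp through Orm1, Saa1, Saa2, Orm2, Serpina3n, Lcn2, Mt1 and Saa3 down to Mt2. The control ranges of Orm1 and Saa1, of Saa1 and Saa2, of Orm2 and Serpina3n, of Serpina3n and Lcn2 and of Mt1 and Saa3 overlapped between livers, although Saa1 was above Saa2 and Serpina3n above Lcn2 within each control liver. In lipophagy livers Serpina3n stood above Orm2 with ranges apart, and the ranges of Lcn2, Mt1, Saa3 and Mt2 overlapped from each gene to the next. The 10 genes together held 1.10%, 1.39% and 1.64% of the summed FPKM in control livers 1, 2 and 3 against 0.833%, 1.01% and 1.04% in lipophagy livers 1, 2 and 3. Every lipophagy share was below every control share, but the denominator also differed, with a summed FPKM over all genes of 622696 to 681138 in control and 709993 to 782392 in lipophagy livers. The summed FPKM of the 10 genes themselves overlapped, at 6846, 9158 and 11186 in control livers against 6516, 7447 and 7376 in lipophagy livers.

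The libraries held an estimated 23.4 to 34.8 M fragments, and control liver 3 was the deepest. The estimate rests on the steps of 1 fragment that low FPKM values show, with 70.2% to 76.7% of 458 to 524 low genes per liver within 0.1 of a whole number of fragments. The least covered of the 10 genes was Mt2 with an estimated 157 to 759 fragments, and Hp had 89300.0 to 189000.0, and counting error alone at these smallest numbers was 7.98% for Mt2 and 0.33% for Hp. All 12 hepatocyte markers were tested, with Alb, the gene of albumin, at 35470.2 FPKM or more in every liver. Their summed FPKM was 61303 to 68487 in control livers and 73541 to 96719 in lipophagy livers, without overlap, and 10 were higher, 2 lower and 6 apart upward (background 15.4%). Without Alb the sums of the other 11 overlapped, at 25833 to 29328 in control and 28532 to 32629 in lipophagy livers. In RNA of whole liver, fewer cells of a type and less RNA per cell cannot be told apart.

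Serum amyloid A proteins travel on high-density lipoprotein and are the most inducible acute phase proteins of the mouse. Saa1 and Saa2 encode the forms made by hepatocytes, and Saa3 encodes a form also made by macrophages and adipocytes. The 4 genes of the family lie together on chromosome 7 (GRCm38, GENCODE annotation), with Saa1 at chr7:46740497-46742980 on the minus strand and Saa2 at chr7:46751790-46754313 on the plus strand, 8809 bases apart and pointing away from each other. Saa3 lies at chr7:46711998-46715700 on the minus strand. The 250 bases before the RefSeq start of Saa1 and Saa2 are shown because these genes kept a common pattern over the livers and their upstream sequences are nearly the same, with 95.6% of aligned bases identical. Capitals mark a C/EBP site, spelled TTGCNNAA and searched on both strands, which 10.8% of 32851 promoter windows of 300 bases hold. The first line is chr7:46742981-46743230 on the minus strand and the next chr7:46751583-46751832 on the plus strand (RefSeq, GRCm38.p6).
Saa1: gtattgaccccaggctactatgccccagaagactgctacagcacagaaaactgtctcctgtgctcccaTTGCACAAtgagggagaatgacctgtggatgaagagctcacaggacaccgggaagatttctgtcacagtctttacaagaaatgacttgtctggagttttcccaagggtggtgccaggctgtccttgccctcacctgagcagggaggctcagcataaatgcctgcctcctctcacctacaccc
Saa2: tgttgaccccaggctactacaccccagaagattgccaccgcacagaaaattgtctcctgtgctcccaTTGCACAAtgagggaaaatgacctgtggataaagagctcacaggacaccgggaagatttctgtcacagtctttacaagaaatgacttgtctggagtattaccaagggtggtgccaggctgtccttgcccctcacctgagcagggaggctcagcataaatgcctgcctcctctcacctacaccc
Counted from the start, the site lies at -182 to -175 in Saa1 and at -183 to -176 in Saa2. The pattern, with other letters at its open positions, also occurs on the minus strand of the Saa3 window, at -99 to -92. A STAT site, spelled TTCNNNGAA and held by 8.30% of windows, and an NF-kB site, held by 4.51%, had no match in the windows of the 8 members that the table holds.

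Saa1 was at 697, 1229 and 2135 FPKM in control livers 1, 2 and 3 and at 757, 915 and 910 FPKM in lipophagy livers 1, 2 and 3. Saa2 was at 418, 617 and 1532 FPKM in control livers and 440, 520 and 616 FPKM in lipophagy livers. In both genes control liver 3 was highest, control liver 1 was lowest and the lipophagy livers lay between control livers 1 and 2, so the groups overlapped. The fitted log2 change was -0.51 for Saa1 (SE 0.34, 95% interval -1.30 to 0.28, limma adjusted p = 0.427). It was -0.50 for Saa2 (SE 0.41, 95% interval -1.44 to 0.45, limma adjusted p = 0.516). These intervals reach from a large decrease to a rise, so that neither a fall nor its absence was shown. Both changes rested on control livers 1 and 3. Without control liver 3 they were -0.11 for Saa1 and 0.035 for Saa2, the latter with its direction turned, and without control liver 1 they were -0.92 and -0.90. The highest control value was 3.06 times the lowest for Saa1 and 3.67 times for Saa2, and in lipophagy livers these ratios were 1.21 and 1.40. The coefficient of variation was 53.7% in control and 10.4% in lipophagy livers for Saa1, and 69.4% and 16.8% for Saa2. The difference in spread was not tested.

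Saa1 and Saa2 moved together from liver to liver. Their transcripts were 94.4% identical over 606 aligned bases, but none of the 510 stretches of 100 bases in the Saa1 transcript occurred unchanged in that of Saa2. Reads with the differing bases can thus be told apart, but how the authors' counting shared out ambiguous reads is not given in the sources used here. Their summed FPKM was 1115, 1847 and 3667 in control livers against 1197, 1435 and 1526 in lipophagy livers (log2 difference -0.51, two-sided exact permutation p = 0.5), and the difference was -0.92 without control liver 1 and -0.058 without control liver 3. The ratio of Saa2 to Saa1 was 0.599, 0.502 and 0.718 in control and 0.581, 0.569 and 0.676 in lipophagy livers (exact permutation p = 1). The ratio stayed within 0.502 to 0.718 while Saa1 itself varied 3.06-fold. The genes most like Saa2 over the 6 livers, by Pearson r of log2(FPKM + 1) among 6181 genes, were Rgs10 (r = 0.990), Hs1bp3 (r = 0.985) and Polr2d (r = 0.982). These are descriptions from 6 livers without a test, and control liver 3 was highest in each of them.

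Saa3 had a narrow range and another order of livers. It was at 80.0, 108 and 89.7 FPKM in control livers and 74.8, 95.5 and 80.4 FPKM in lipophagy livers. Its highest liver was control liver 2, not control liver 3, and the groups overlapped. Its log2 change was -0.14 (SE 0.13, 95% interval -0.45 to 0.17, limma adjusted p = 0.570), and it was -0.026 without control liver 2, -0.24 without lipophagy liver 2 and -0.29 after quantile normalization. Of 12 macrophage markers 11 were tested, 4 higher and 7 lower, with 1 higher and 4 lower at an unadjusted p below 0.05 (background 11.5% and 7.97%) and 4 apart downward (background 10.8%), and the summed FPKM of the whole list was 676 to 886 in control and 658 to 815 in lipophagy livers. Of 6 adipocyte markers 2 were tested, the sums over the whole list were 19.5 to 28.4 and 20.4 to 21.3 FPKM, and Lep, the gene of leptin, was listed at 0 in every liver. Their part in the level of Saa3 was not tested. Saa4, the constitutive member of the family, was at 147, 158 and 154 FPKM in control and 184, 189 and 235 FPKM in lipophagy livers, higher in each of the latter (log2 change 0.39, limma adjusted p = 0.154). The ratio of Saa4 to Saa1 was 0.211, 0.129 and 0.0722 in control and 0.243, 0.206 and 0.258 in lipophagy livers (exact permutation p = 0.2), with 1 control liver above the lowest lipophagy liver.

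Orosomucoids, or alpha-1-acid glycoproteins, are heavily glycosylated plasma proteins that carry drugs and dampen immune responses. Orm1, Orm3 and Orm2 lie in a row on the plus strand of chromosome 4, with Orm1 at chr4:63344560-63348163, Orm3 at chr4:63356162-63359511 and Orm2 at chr4:63362449-63365878. The groups were apart in Orm2 and overlapped in Orm1. Orm2 was at 223, 371 and 275 FPKM in control livers and at 159, 174 and 165 FPKM in lipophagy livers. All lipophagy livers lay below all control livers, and they varied little, with a coefficient of variation of 4.50% against 26.0% in control livers. The log2 change was -0.77 (SE 0.17, 95% interval -1.16 to -0.38, limma adjusted p = 0.134), a change of -41.2% that did not pass adjustment over all genes. Orm1 was at 1133, 1659 and 1782 FPKM in control livers and 1506, 1659 and 1589.7 FPKM in lipophagy livers. Here control liver 1 was lowest and control liver 3 highest, with all lipophagy livers between them. The log2 change was 0.082 (SE 0.17, 95% interval -0.30 to 0.47, limma adjusted p = 0.808), and its sign turned under quantile normalization (-0.12).

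The groups were also apart in the ratio of Orm2 to Orm1 within each liver. It was 0.196, 0.224 and 0.154 in control livers against 0.106, 0.105 and 0.104 in lipophagy livers. The mean was 0.192 ± 0.0350 (SD, n = 3) in control and 0.105 ± 0.000818 (SD, n = 3) in lipophagy livers, and the lowest control ratio was above the highest lipophagy ratio. The SD of the lipophagy ratios was smaller than the counting error of Orm2 alone, which was up to 2.13% of its value, and so understates the error of the ratio. The log2 difference was -0.85 with an exact permutation p of 0.1, the smallest that 3 livers against 3 can give, and 0.7 after adjustment over the 7 sums and ratios compared. The transcripts of Orm1 and Orm2 were 91.0% identical over 775 bases, and 47 of 676 stretches of 100 bases (6.95%) in Orm1 occurred unchanged in Orm2, so some reads fit both genes and their separate levels are uncertain to that extent. The summed FPKM of Orm1, Orm2 and Orm3 was 1362, 2043 and 2066 in control and 1672, 1838 and 1762 in lipophagy livers, with overlap (log2 difference -0.029, exact permutation p = 1). Orm3, a minor gene of the group, was at 6.61, 12.4 and 8.63 FPKM in control and 6.69, 4.74 and 7.06 FPKM in lipophagy livers (log2 change -0.49, limma adjusted p = 0.253). The genes most like Orm2 over the 6 livers were Aif1 (r = 0.976), Ctsb (r = 0.972) and Apobec1 (r = 0.971). The RefSeq window of Orm2 holds TTGCNNAA at -120 to -113, where the letters read the same on both strands.

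**Figure D2:**
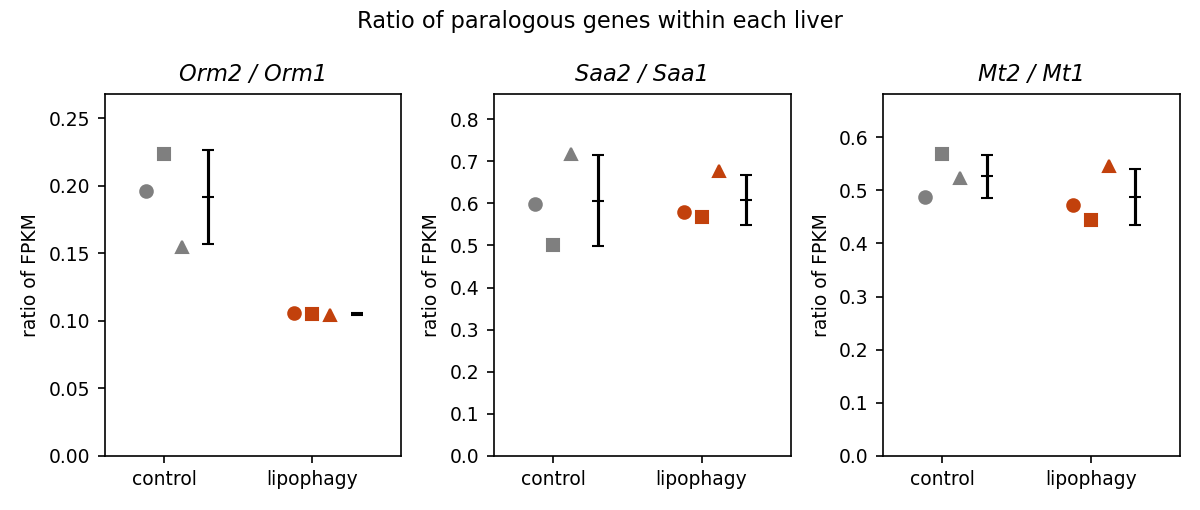
Ratio of FPKM between paralogous genes within each liver, with the group mean and SD beside the points (n = 3 a group). Orm2 to Orm1 was 0.154 to 0.224 in control and 0.104 to 0.106 in lipophagy livers, whereas the ratios of Saa2 to Saa1 and of Mt2 to Mt1 overlapped between the groups.

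Haptoglobin, the product of Hp, binds free haemoglobin in plasma. Hp (chr8:109575128-109579172, minus strand) was at 3772, 4710.2 and 4751 FPKM in control livers and 3222, 3696 and 3387 FPKM in lipophagy livers. All lipophagy livers lay below all control livers, although the gap between the nearest livers of each group was narrow. The log2 change was -0.36 (SE 0.13, 95% interval -0.65 to -0.064, limma adjusted p = 0.204), a change of -21.8%, and it was -0.54 after quantile normalization (adjusted p = 0.0780). Of 7 haemoglobin and red cell markers 4 were tested, all with a higher fitted level in lipophagy livers. The groups were apart upward only in Alas2 (background 15.4%), and Hba-a2 and Hbb-bs were below 0.5 FPKM in livers of both groups. The sum over the whole list reached 253 FPKM in lipophagy liver 2 and was between 92.5 and 127 FPKM in the other livers, and Hp was highest in that liver among lipophagy livers. Their part in the level of Hp was not tested.

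Lipocalin-2, the product of Lcn2, holds bacterial iron carriers away from microbes and is made by injured hepatocytes and by neutrophils. Lcn2 (chr2:32384633-32388252, minus strand) was at 133, 169 and 210 FPKM in control livers and at 78.2, 93.6 and 122 FPKM in lipophagy livers. It was lower in every lipophagy liver, and the spread within each group was alike, with coefficients of variation of 22.9% and 22.6%. On the log2 scale it changed by -0.79 (SE 0.20, 95% interval -1.25 to -0.33, limma adjusted p = 0.139), or -42.3%. Leaving out any liver kept it between -0.96 and -0.63. The changes of Lcn2 and Orm2 differed by less than their SE. Of 12 neutrophil markers 3 were tested, and all 3 had a lower fitted level in lipophagy livers (limma adjusted p from 0.165 to 0.334). These were S100a8, S100a9 and Csf3r, named after their values were seen. The groups were apart downward in S100a9 and Csf3r (background 10.8%) and overlapped in S100a8. The summed level of the list was 19.3 to 33.7 FPKM in control and 17.1 to 20.2 FPKM in lipophagy livers. Markers below the filter peaked in either group, such as Camp and Ngp in lipophagy liver 3 and Retnlg in control liver 3. The granule genes Mpo and Elane were at 0.150 FPKM or less in every liver, with Mpo at 0 in control liver 1 and Elane at 0 in lipophagy liver 3. The part of these cells in the level of Lcn2 was not tested. The genes most like Lcn2 over the 6 livers were Mmd (r = 0.985), Ywhaz (r = 0.981) and Rhob (r = 0.981).

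Serpina3n encodes a mouse relative of the human protease inhibitor alpha-1-antichymotrypsin. Serpina3n (chr12:104406729-104414329, plus strand) was at 226, 193 and 224 FPKM in control livers and 213, 196 and 234 FPKM in lipophagy livers. The groups coincided, with a log2 change of -0.0030 (SE 0.10, 95% interval -0.24 to 0.23, limma adjusted p = 0.989), although quantile normalization moved it to -0.19 (adjusted p = 0.485). This interval excludes a change of the size fitted for Lcn2 or Orm2. The related genes Serpina3m and Serpina3k shared 82.0% and 79.9% of aligned transcript bases with it and no stretch of 100 bases.

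**Figure D3:**
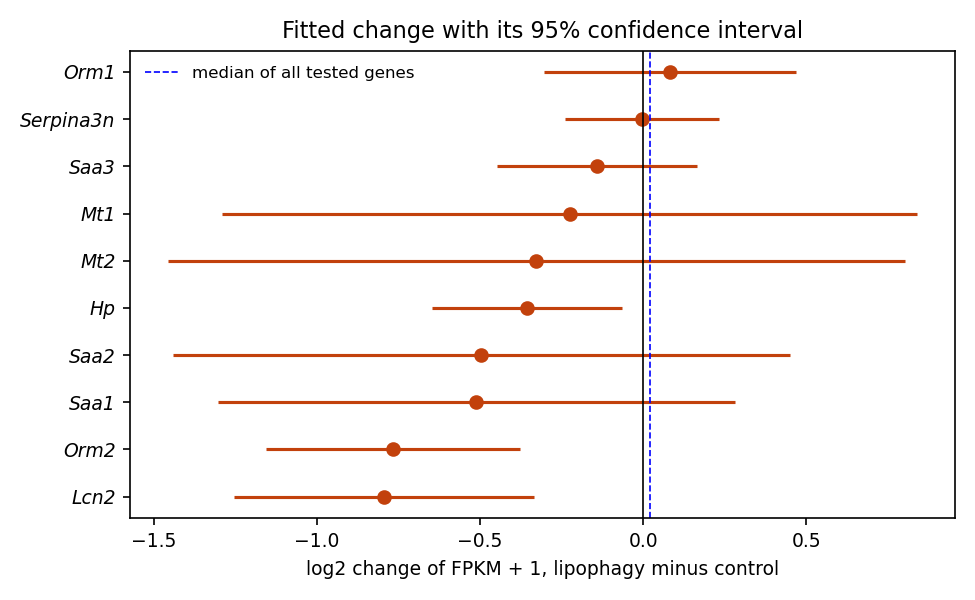
Fitted log2 change of FPKM + 1 for each of the 10 genes, lipophagy minus control, with its 95% confidence interval from limma (3 livers a group). The intervals of Lcn2, Orm2 and Hp lie below 0, that of Serpina3n is narrow around 0, and those of Mt1, Mt2, Saa1 and Saa2 are wide.

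Mt1 and Mt2 encode the 2 metallothioneins of the liver and lie next to each other on the plus strand of chromosome 8, Mt2 at chr8:94172664-94173568 and Mt1 at chr8:94179082-94180327, with 5513 bases between them. Sequences are shown because both genes varied together and carry the metal response element, the motif that MTF-1 binds. Capitals mark its core, spelled TGCACNC or TGCGCNC and searched on both strands, so that a match on the minus strand reads from right to left in complement. The first line is chr8:94172368-94172617, the next is chr8:94178839-94179088, and the last is a short stretch just after the annotated start of Mt1, chr8:94179091-94179115, all on the plus strand (RefSeq, GRCm38.p6).
Mt2: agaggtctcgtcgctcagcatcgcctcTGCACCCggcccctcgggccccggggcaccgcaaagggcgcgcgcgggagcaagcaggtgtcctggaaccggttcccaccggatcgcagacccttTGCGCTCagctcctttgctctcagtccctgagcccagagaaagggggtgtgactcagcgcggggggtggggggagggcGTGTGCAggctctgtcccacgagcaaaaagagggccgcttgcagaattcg
Mt1: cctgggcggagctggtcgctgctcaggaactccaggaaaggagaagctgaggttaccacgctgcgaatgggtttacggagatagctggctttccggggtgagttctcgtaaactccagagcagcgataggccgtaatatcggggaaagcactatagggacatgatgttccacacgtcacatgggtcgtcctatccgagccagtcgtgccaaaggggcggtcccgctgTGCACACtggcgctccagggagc
Mt1 after the start: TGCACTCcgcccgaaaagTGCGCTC
In the windows of 300 bases Mt1 held 3 cores and Mt2 held 4, of which the last lies 5 to 11 bases after the annotated start. At least 1 core occurred in 25.7% of all windows and at least 3 in 1.97%.

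Mt1 was at 111, 64.0 and 122 FPKM in control livers and at 44.2, 68.8 and 176 FPKM in lipophagy livers. Mt2 was at 54.0, 36.4 and 63.8 FPKM in control livers and 20.9, 30.6 and 96.4 FPKM in lipophagy livers. In both genes lipophagy liver 3 was the highest of all 6 livers and lipophagy liver 1 the lowest, so that the lipophagy group enclosed the control group. Within the lipophagy group the highest liver was 3.99 times the lowest for Mt1 and 4.62 times for Mt2, against 1.90 and 1.75 times in control livers. The log2 change was -0.22 for Mt1 (SE 0.46, 95% interval -1.29 to 0.84, limma adjusted p = 0.809) and -0.33 for Mt2 (SE 0.49, 95% interval -1.46 to 0.80, limma adjusted p = 0.732). Without lipophagy liver 1 both directions turned, to 0.21 and 0.12, and without lipophagy liver 3 the changes were -0.78 and -0.96, so no direction can be given.

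The ratio of Mt2 to Mt1 was steady while both levels varied. It was 0.487, 0.569 and 0.523 in control and 0.472, 0.445 and 0.547 in lipophagy livers (exact permutation p = 0.4). Their transcripts were 72.3% identical and shared no stretch of 100 bases. Of all tested genes that averaged 5 FPKM or more, Mt2 was the most like Mt1 (r = 0.988), followed by Dcaf6 (r = 0.974) and Ppara (r = 0.974), as a description over 6 livers. The brain and squamous epithelial forms Mt3 and Mt4 were below the filter, at 0.243 FPKM or less in every liver.

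The metallothionein pattern was next set beside the zinc pathway. Of 32 genes of the metal response and of zinc and copper transport 23 were tested, 17 higher and 6 lower in lipophagy livers, and 0 passed adjustment in limma. At an unadjusted p below 0.05, 3 were higher (background 11.5%) and 0 lower (background 7.97%), and the median log2 change was 0.082. Mtf1, the metal-sensing factor, was at 1.51 to 1.63 FPKM in all 6 livers (log2 change 0.016, limma adjusted p = 0.922). Slc30a1, a zinc exporter that MTF-1 also controls, was at 4.36, 4.67 and 4.49 FPKM in control and 3.54, 4.44 and 4.76 FPKM in lipophagy livers (log2 change -0.078, limma adjusted p = 0.696). Its order within lipophagy livers was that of Mt1, with liver 1 lowest and liver 3 highest, over a far smaller range. The extremes of the list were Slc39a7, a zinc transporter of the endoplasmic reticulum (log2 change 0.37, limma adjusted p = 0.200), Slc30a10, a manganese exporter (0.44, adjusted p = 0.321), and Slc39a4, a zinc importer (-0.11, adjusted p = 0.572).

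Of 18 glucocorticoid targets, all tested, 15 had a higher and 3 a lower fitted level in lipophagy livers, and 12 had their highest level in the liver with the most metallothionein RNA. Like all lists here, this one was chosen with earlier results of these data known. The list had a median log2 change of 0.43 against 0.020 over all tested genes. At an unadjusted p below 0.05, 8 were higher (background 11.5%) and 0 lower (background 7.97%), and none passed adjustment in limma. Tsc22d3, which encodes the glucocorticoid-induced leucine zipper, was at 15.9, 21.4 and 18.1 FPKM in control livers and 35.9, 34.5 and 68.6 FPKM in lipophagy livers. Every lipophagy liver was above every control liver, and lipophagy liver 3 stood highest (log2 change 1.22, limma adjusted p = 0.124). Tat, tyrosine aminotransferase, had a log2 change of 0.995 with overlapping groups (limma adjusted p = 0.211), Klf9 was at -0.14 (adjusted p = 0.713), and the receptor gene Nr3c1 was at -0.11 (adjusted p = 0.540). Lipophagy liver 3, which held the highest value of these 12 genes, held that of 16.5% of all tested genes. The mean deviation of the list from each gene's own mean was 0.61 on the log2 scale in lipophagy liver 3, 0.063 and 0.0054 in lipophagy livers 1 and 2, and -0.26 to -0.20 in control livers. Without lipophagy liver 3 there were 13 higher and 5 lower, with a median of 0.20. Without control liver 3 the 8 at an unadjusted p below 0.05 became 5, while over all tested genes the higher ones went from 1327 to 901. Fkbp5, at 16.5 FPKM in lipophagy liver 3 and 3.65 to 6.31 FPKM elsewhere, and Dusp1, at 29.6 FPKM there and 5.81 to 9.24 FPKM elsewhere, were chosen after their values were seen. The part of glucocorticoids in the metallothionein levels was not tested, and in lipophagy liver 1, where Mt1 and Mt2 were lowest, the mean of the targets was above that of all control livers.

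**Figure D4:**
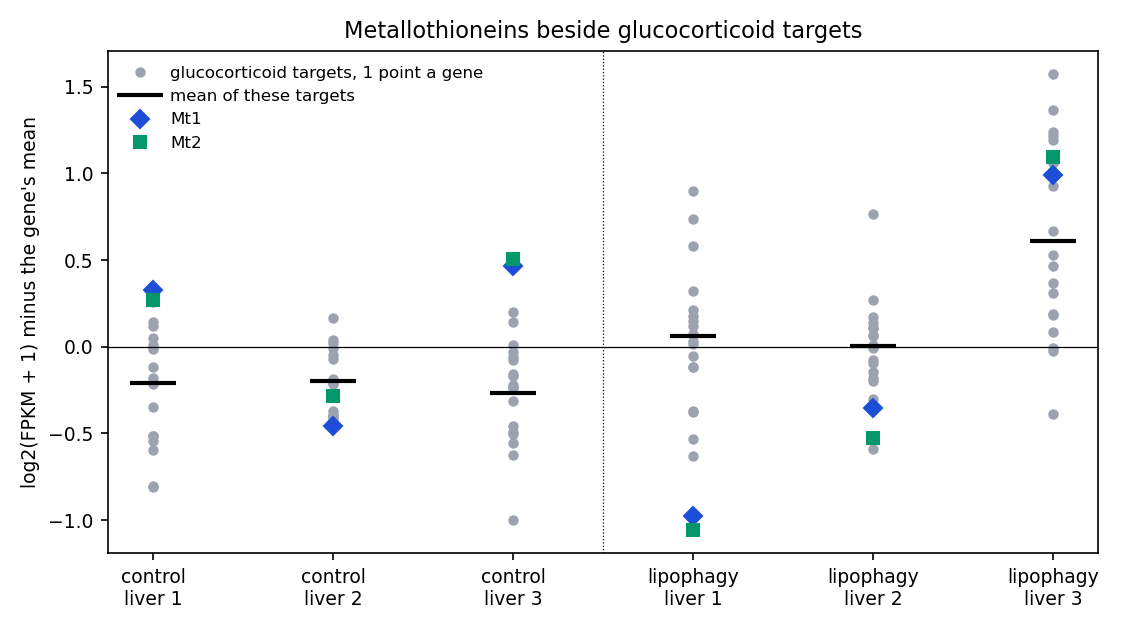
Deviation of log2(FPKM + 1) from the gene's own mean in each liver, for Mt1 (diamonds), Mt2 (squares) and 18 glucocorticoid targets (grey points, with their mean as a bar). In lipophagy liver 3 the mean of the targets was 0.61 and both metallothioneins had their highest value, and in lipophagy liver 1 the metallothioneins had their lowest value with the targets' mean at 0.063.

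The 10 genes were then compared with the other proteins of the acute phase. Of 36 other positive acute phase genes 34 were tested, 17 higher and 17 lower, with a median log2 change of 0.040. Unadjusted p was below 0.05 for 9 higher and 2 lower genes (background 11.5% and 7.97%), 10 were apart upward and 2 downward (background 15.4% and 10.8%), and none passed adjustment in limma. Without lipophagy liver 3 the counts at this p were 10 higher and 5 lower and the list median was -0.016, and without control liver 3 they were 6 higher and 0 lower. Over all 11493 tested genes these counts were 1609 higher and 943 lower without lipophagy liver 3, and 901 and 602 without control liver 3. Serpina3m, a neighbour of Serpina3n, was at 105, 78.2 and 94.99 FPKM in control and 195, 113 and 134 FPKM in lipophagy livers (log2 change 0.63, limma adjusted p = 0.176). Serpina1d, an alpha-1-antitrypsin gene of a near-identical family whose members may exchange reads, had a log2 change of 0.40 (limma adjusted p = 0.203). The lowest changes were those of Orm3, given above, and of Steap4, a metalloreductase, at -0.36 (limma adjusted p = 0.247). Serpina3c and A2m were below the filter, at 0.173 FPKM or less in every liver.

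Of 17 negative acute phase genes, which fall in inflammation, 12 were higher and 5 lower, with a median log2 change of 0.057. None passed adjustment in limma, and at an unadjusted p below 0.05 there were 1 higher and 2 lower (background 11.5% and 7.97%). Alb was at 38614, 35470.2 and 39159 FPKM in control livers and 64089, 45009 and 49118 FPKM in lipophagy livers, without overlap (log2 change 0.47, limma adjusted p = 0.204). Apoa2, a protein of high-density lipoprotein, followed at 0.27 (limma adjusted p = 0.325). Apoa4, an apolipoprotein that liver makes in step with its triglyceride load, was at 373, 575 and 568 FPKM in control and 208, 266 and 168 FPKM in lipophagy livers, all lower (log2 change -1.23, limma adjusted p = 0.103). Serpina7, which encodes thyroxine-binding globulin, was at -0.37 (limma adjusted p = 0.204).

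Of 28 signalling genes of the acute phase 25 were tested, 10 higher and 15 lower in lipophagy livers, with 2 higher and 7 lower at an unadjusted p below 0.05 (background 11.5% and 7.97%) and none past adjustment in limma. Without control liver 3 the 7 became 4, while over all tested genes the lower ones at this p went from 916 to 602. Socs3, the feedback inhibitor that STAT3 induces, was at 8.78, 13.8 and 28.4 FPKM in control livers and 2.67, 3.75 and 4.31 FPKM in lipophagy livers. Every lipophagy liver was below every control liver, and within the control group the order of livers was that of Saa1 and Saa2, with liver 3 highest and liver 1 lowest. Its fitted log2 change was -1.84 (SE 0.35, 95% interval -2.65 to -1.03, limma adjusted p = 0.118). Control liver 1 and lipophagy liver 1 had close levels of Saa1, 697 and 757 FPKM, at 8.78 and 2.67 FPKM of Socs3. A link between the levels of Socs3 and Saa1 was not tested. Il1b, interleukin-1 beta, was at 2.41, 2.53 and 2.67 FPKM in control and 1.27, 1.62 and 1.39 FPKM in lipophagy livers (log2 change -0.55, limma adjusted p = 0.0915), with all lipophagy livers below all control livers. Il6, with Osm and Lif, was below the filter, at 0.0476 FPKM or less and at 0 in 3 livers, so its level was not measurable at this depth.

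Receptors and factors downstream had fitted changes in both directions. Il6ra, the interleukin-6 receptor, was at 2.09, 2.31 and 2.71 FPKM in control and 2.91, 4.31 and 6.12 FPKM in lipophagy livers, higher in each (log2 change 0.65, limma adjusted p = 0.170), and its partner Il6st (gp130) had a log2 change of -0.16 (adjusted p = 0.450). Il1rap, a subunit of the interleukin-1 receptor, was at 0.34 (limma adjusted p = 0.171). Stat3 was at -0.13 (limma adjusted p = 0.533), and the C/EBP genes Cebpb and Cebpd were at 0.22 (adjusted p = 0.640) and 0.12 (adjusted p = 0.730), all with overlapping groups. In this list 6 genes were apart downward (background 10.8%) and 3 upward (background 15.4%), the latter being Il6ra, Il1rap and Tyk2 (log2 change 0.094, limma adjusted p = 0.474). Beside Socs3 and Il1b, 4 genes, named with Tyk2 once their values were known, were lower in every lipophagy liver than in every control liver. These were the NF-kB genes Bcl3 (log2 change -0.45, limma adjusted p = 0.134) and Rela (-0.26, adjusted p = 0.177), the oncostatin M receptor gene Osmr (-0.26, adjusted p = 0.169) and Tnf, tumour necrosis factor (-0.31, adjusted p = 0.204). Nfkb2 was at -0.30 with overlapping groups (limma adjusted p = 0.255).

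**Figure D5:**
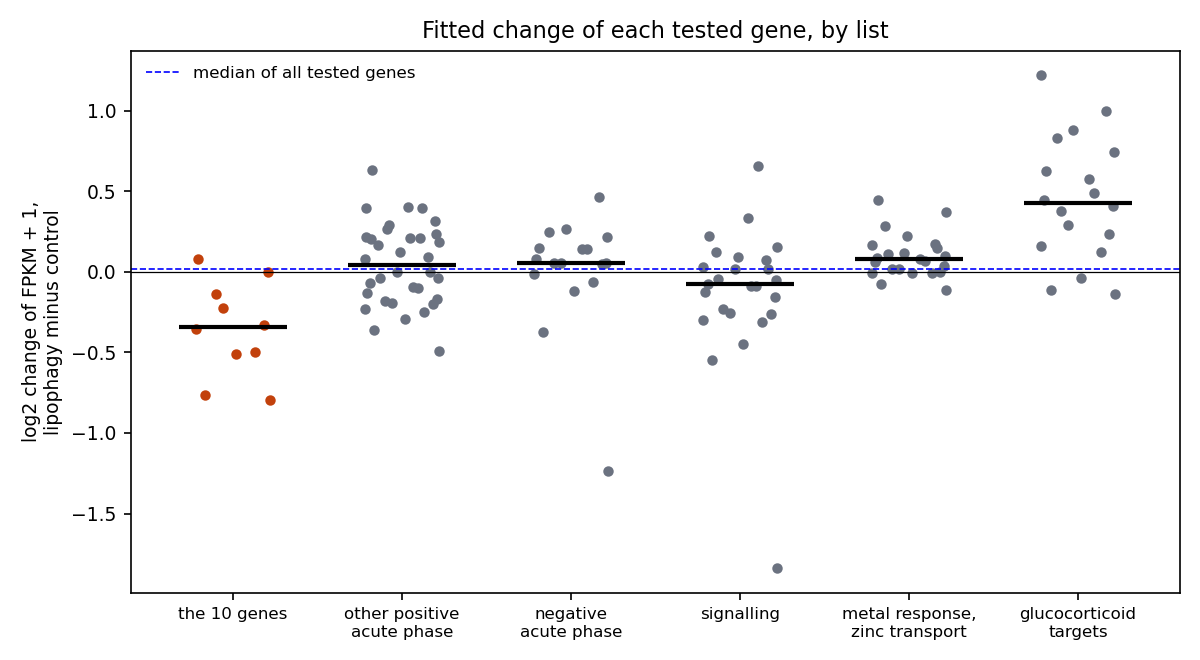
Fitted log2 change of FPKM + 1 for each tested gene, lipophagy minus control, in 6 lists (1 point a gene, bar at the list median, dashed line at the median of all tested genes). The medians were -0.34 for the 10 genes, 0.040 for other positive and 0.057 for negative acute phase genes, -0.079 for signalling genes, 0.082 for metal genes and 0.43 for glucocorticoid targets.

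Within the 10 genes the livers did not follow a single order. As a description over 6 livers without a test, Pearson r of log2(FPKM + 1) was 0.97 for Saa1 and Saa2, 0.99 for Mt1 and Mt2 and 0.93 for Orm2 and Hp. Taken as deviations from the group means, Orm1 and Hp had an r of 0.95 and Saa1 and Orm1 of 0.93. Other pairs had values near 0, such as Mt1 with Orm1 (-0.039) and Serpina3n with Saa1 (-0.037). Serpina3n and Saa3 ran against each other (r = -0.74, and -0.81 within groups). All these values share the same 6 libraries. The median deviation of the 10 genes from their own means was -0.0017, 0.19 and 0.40 on the log2 scale in control livers 1, 2 and 3, with -0.44, -0.21 and -0.033 in the 3 lipophagy livers. Control liver 1 and lipophagy liver 3 were thus close to each other.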

How the data were processed

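Poly(A) RNA of 6 livers (3 control, 3 lipophagy) was sequenced by the authors, who deposited FPKM per gene symbol and liver. The submitters' processing notes name TopHat2 2.0.13, Bowtie2 2.2.3, SAMtools 0.1.19, Cufflinks 2.2.1 and mm10. The annotation is not given in the sources used here. The labels name a HiSeq and the study's methods a NovaSeq instrument. Models for counts were not applied to FPKM. Of the symbols, 27 had been turned into dates and 7161 were at 0 in all livers. Genes averaging 0.5 FPKM or more were tested on log2(FPKM + 1) with limma 3.58.1 in R 4.3.3 (moderated variance with an intensity trend, no covariates, two-sided, Benjamini-Hochberg adjustment over 11493 genes, threshold 0.05). Fold changes on this scale understate those of low genes. The 7 sums and ratios were compared with two-sided exact permutation tests. Positions and transcripts came from GENCODE (GRCm38), promoters from RefSeq, which held 8 of the 10 genes. Depth was estimated with transcript lengths less 200 bases. Python 3.11.15, pandas 2.3.3, numpy 2.4.6, Biopython 1.88 and matplotlib 3.10.9 were used. Simulated data were used to test the fit.

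The 10 genes and all lists were chosen with earlier results of these data known. Named genes were the 10 genes, in each related list the 2 largest rises and falls and any gene called, 8 regulators (Il6ra, Il6st, Stat3, Socs3, Cebpb, Cebpd, Mtf1 and Slc30a1) and, for Saa2, Orm2, Lcn2 and Mt1, the 3 genes most like them. Saa4, the other members of the gene families and markers were named beside them, outside this rule. Markers of stellate cells were all tested, 2 of 8 higher and 6 lower. Of these 6, 4 were apart (background 10.8%) and at an unadjusted p below 0.05 (background 7.97%). The sum of all 8 was 76.1 to 88.2 FPKM in control and 62.6 to 78.8 FPKM in lipophagy livers. Of 8 lymphocyte markers 2 were tested, both lower (all 8 summed 4.35 to 4.73 and 3.40 to 3.75 FPKM). Alternatives were other pseudocounts, filters, scalings and variance models, the replicate number as a block, and each liver left out.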

Additional observations from a re-analysis of the deposited data

How the results depend on the processing

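No member was below the filter on low values, and Orm2, Lcn2, Hp, Saa1 and Saa3 kept a negative log2 change under all 16 alternatives, although leaving out a liver moved Saa1 between -0.92 and -0.11 and Saa3 between -0.24 and -0.026. Over these, limma adjusted p ranged from 0.0669 to 0.336 for Orm2, 0.0211 to 0.343 for Lcn2 and 0.0780 to 0.407 for Hp. Deviations of same-numbered livers correlated at 0.25, 0.23 and -0.057. For control livers 1 and 2 the same-numbered lipophagy liver was the closest, but control liver 3 was closest to lipophagy liver 2. A pairing of the livers by number was thus neither shown nor excluded. With the replicate number as a block, 43 genes were called in place of 3, and 1 of them was a member, Lcn2 (log2 change -0.79, limma adjusted p = 0.0211). A quality weight for each liver gave 39 called genes and no filter gave 1, and leaving out a liver gave 1 (control liver 3) to 11 (lipophagy liver 3), with 0 members among them. Quantile normalization moved the split at an unadjusted p below 0.05 from 1327 higher and 916 lower genes to 745 higher and 899 lower, and it moved every member downward (Hp to -0.54, Serpina3n to -0.19, Saa3 to -0.29, Mt1 to -0.38). The members' median ranged from -0.59 to -0.13 over livers left out, and that of other positive acute phase genes, chosen after seeing the data, turned to -0.016 without lipophagy liver 3 and was 0.077 without control liver 3. Directions turned for Orm1 with quantile normalization (-0.12), quality weights (-0.0075) and without control liver 1 (-0.12). For Serpina3n they turned on leaving out control liver 1 (0.036) or 3 (0.031), or lipophagy liver 2 (0.060), with a lowest value over livers left out of -0.076. Over livers left out, Saa2 ranged from -0.90 to 0.035 (without control liver 3), Mt1 from -0.78 to 0.21, Mt2 from -0.96 to 0.12 and their sum from -0.85 to 0.18, the highest Mt values without lipophagy liver 1. The sum of Saa1 and Saa2 ranged from -0.92 to -0.058. The sum of Orm1, Orm2 and Orm3 was at 0.066 without control liver 2, 0.074 without control liver 3 and 0.0065 without lipophagy liver 1, and ranged from -0.23 to 0.074. The causes were not tested. Counting error at the smallest estimated number of fragments was 0.33% (Hp) to 7.98% (Mt2) for the members.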

Other observations

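Receptors that take up or sense the secreted products were measured as well. Of 11 such genes 6 were tested, 3 higher and 3 lower in lipophagy livers, with 0 past adjustment in limma and 2 lower at an unadjusted p below 0.05 (background 7.97%). Lrp1, which clears complexes of plasma proteins, was at 28.9, 25.1 and 25.9 FPKM in control and 19.7, 21.7 and 23.3 FPKM in lipophagy livers (log2 change -0.29, limma adjusted p = 0.181). Tlr2, a receptor that serum amyloid A can engage, was at 2.87, 2.42 and 3.25 FPKM in control and 1.74, 2.52 and 1.66 FPKM in lipophagy livers (log2 change -0.38, limma adjusted p = 0.202). The groups were apart for Lrp1 and overlapped for Tlr2. Scarb1, the receptor of high-density lipoprotein, was at 0.18 (limma adjusted p = 0.300) and Fpr2, a formyl peptide receptor of serum amyloid A, at 0.082 (limma adjusted p = 0.742). Cd163, Slc22a17, Lrp2, Tlr4 and Ager were below the filter, at 0.527 FPKM or less in every liver.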
